A study of Mus musculus with 14 samples.

Results

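The Notch receptors Notch1 and Notch2, the ligands Dll1 and Jag1, the transcriptional repressors Hes1 and Hes5 and the Id genes Id1, Id2, Id3 and Id4 were followed through a mouse model of medulloblastoma, a tumor of the cerebellum. A probe set, the group of array probes that reports 1 transcript, was taken where its annotation gave one of these 10 names alone. This gave 13 probe sets for 9 genes, out of 12422 probe sets and 8251 named genes. No probe set carried the name Jag1 in the annotation used, so Jag1 was not analysed here. The 14 arrays each measured total RNA of cells dissociated from cerebellum, in 3 groups. Granule cell precursors (GCP, n = 4) came from patched+/- mice aged 7 days. Cells called pretumor (n = 5) came from patched mutants aged 6 weeks. Cells called tumor (n = 5) came from patched mutants aged 10 to 25 weeks with outward signs of the disease. The mice descended from patched heterozygotes bred to 129X1/SvJ, so all 3 groups share a patched mutation, and age moves together with stage. The labels also describe Math1-GFP crosses and do not say whether the animals on the arrays carried that transgene. The cells were taken from a Percoll step gradient and were not sorted. The labels do not say that each array came from a separate animal, so p-values measure the spread between arrays, which may be technical.

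Notch receptors are cut after a ligand of the Delta (Dll) or Jagged (Jag) family on a neighbouring cell binds them, and the freed intracellular part joins the DNA-binding protein Rbpj to switch on targets such as Hes1 and Hes5. The Hes proteins repress genes that push a progenitor to become a neuron. Id proteins, which are raised by BMP signals, lack a DNA-binding region and hold E proteins such as Tcf3, Tcf4 and Tcf12 away from DNA. In the cerebellum, Notch2 and Hes1 are known from granule cell precursors, and Hes5 and Id4 from glia and neural stem cells.

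Promoter sequences are shown for Id2 and Id4, the members with an intensity of 16 or more on most arrays, and for Hes5, a classical Notch target and the Hes gene with a called difference. They run from 250 bases before to 50 bases after a start of the gene, in the direction of the gene, from RefSeq on GRCm38.p6. The table held 7 of the 9 measured members. Capitals mark TGGGAA, the core of the Rbpj site, and CANNTG, the E-box bound by E proteins, each on either strand. The Id2 stretch is chr12:25096043-25096342 on the minus strand, the Id4 stretch is chr13:48260866-48261165 on the plus strand and the Hes5 stretch is chr4:154960673-154960972 on the plus strand. The Hes5 gene as a whole begins at 154960626, before this stretch, so the Hes5 stretch surrounds another start.

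Id2: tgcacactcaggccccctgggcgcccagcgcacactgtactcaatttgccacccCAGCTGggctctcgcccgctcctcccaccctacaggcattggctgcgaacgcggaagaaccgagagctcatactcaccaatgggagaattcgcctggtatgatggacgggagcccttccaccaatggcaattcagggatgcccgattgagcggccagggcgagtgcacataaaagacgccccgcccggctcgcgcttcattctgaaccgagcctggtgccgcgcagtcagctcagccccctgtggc

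Id4: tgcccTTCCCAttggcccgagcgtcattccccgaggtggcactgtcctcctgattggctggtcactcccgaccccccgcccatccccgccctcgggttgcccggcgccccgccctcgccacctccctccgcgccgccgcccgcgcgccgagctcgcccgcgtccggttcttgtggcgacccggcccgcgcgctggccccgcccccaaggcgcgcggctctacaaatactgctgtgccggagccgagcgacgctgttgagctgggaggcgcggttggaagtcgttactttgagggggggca

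Hes5: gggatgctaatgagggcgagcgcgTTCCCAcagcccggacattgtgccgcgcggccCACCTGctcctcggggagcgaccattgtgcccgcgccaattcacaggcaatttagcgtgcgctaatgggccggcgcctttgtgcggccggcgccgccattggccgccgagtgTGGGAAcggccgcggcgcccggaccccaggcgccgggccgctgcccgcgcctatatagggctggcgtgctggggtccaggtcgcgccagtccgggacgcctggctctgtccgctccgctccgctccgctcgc

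The Hes5 stretch held 2 matches to TGGGAA and 1 to CANNTG, the Id4 stretch 1 and 0, and the Id2 stretch 0 and 1. No match was found to either motif in the stretches of Notch1, Notch2 and Id3. The 2 starts of Dll1 held 0 matches to TGGGAA, and 1 and 3 to CANNTG. Of 32851 promoters of this length, 25.6% held TGGGAA and 72.3% held CANNTG, so either motif is common and a match describes these letters alone.

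Array medians lay between 4.12 and 4.39, and 70.5% of all values lay below an intensity of 16, or 4 on the log2 scale, a crowded range near background that is called the low band here. Of the 182 values of the members, 153 (84.1%) lay in the low band. The probe sets in the low band on all 14 arrays were 9 of the 13 members (69.2%), against 66.6% of all probe sets. Those 9 cover Notch1, Dll1, Hes1, Hes5 and Id3 entirely, so levels of these 5 genes were not resolved from background. GCP 1 resembled GCP 2 (r = 0.9977) and GCP 3 resembled GCP 4 (r = 0.9975) more than across these pairs (r of 0.9939 to 0.9956). Pretumor 3 and tumor 2 stood furthest out (28.4 and 29.8) on the main axis of deviations from the group means over all probe sets. Where averaging each GCP pair, or leaving out pretumor 3 and tumor 2 together, ended a call of a gene named here, the adjusted p or its range is given beside it. As a check of the labelled cell type, 7 of 10 measured granule cell precursor markers lay above the low band on all 14 arrays, Gli2 did so on 1 GCP array alone, and Atoh1 and Gli1 on none. Of the 10, 0 were called higher and 2 lower in tumor and again in pretumor samples against GCP, Neurod1, described further on, and Pax6. The paired-box factor Pax6 (92271_at) fell 4.70-fold in tumor and 3.35-fold in pretumor samples (adjusted p = 0.00214 and 0.0108), and the pretumor call ended with GCP pairs averaged (0.114). The probe set of patched with signal, Ptch1 104030_at, averaged 7.37 ± 0.12 (GCP), 7.53 ± 0.32 (pretumor) and 7.79 ± 0.56 (tumor; log2 intensity, SD), and no difference was called (limma adjusted p of 0.501 or more). The other Ptch1 probe set, 104031_at, never left the low band, with means of 2.03, 2.00 and 2.07 (adjusted p of 0.751 or more).

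**Figure D1:**
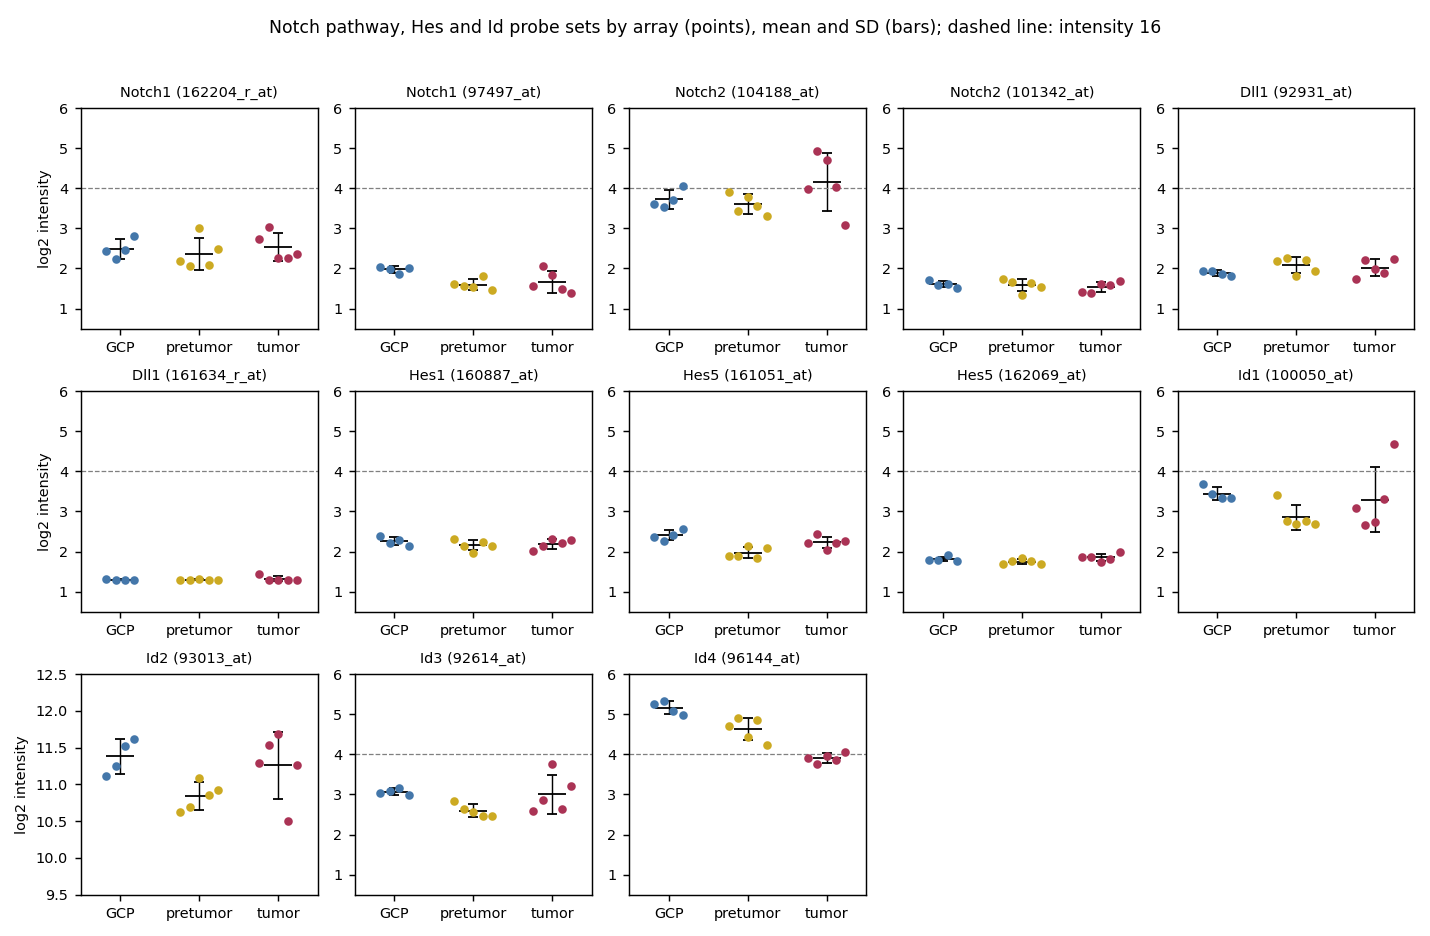
Log2 intensity of the 13 member probe sets on each of the 14 arrays, with values below the floor of 1.3 set to it. Points are arrays, bars are the group mean and SD (n = 4 GCP, 5 pretumor, 5 tumor) and the dashed line is the intensity of 16 that bounds the low band. Id2 has its own axis range, and Id4 is the member whose 3 groups do not overlap.

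Id4, an Id protein of glia and neural progenitors, was the member that differed between all stages, and it was lower at each later stage. Probe set 96144_at had log2 intensities of 5.26, 5.34, 5.08 and 4.99 in the GCP samples, 4.70, 4.91, 4.44, 4.86 and 4.24 in the pretumor samples and 3.91, 3.76, 3.96, 3.86 and 4.06 in the tumor samples. No array of a later stage reached the lowest array of an earlier one. All GCP and pretumor arrays lay above the low band, and 1 of 5 tumor arrays did. The group means were 5.17 ± 0.16 in GCP samples, 4.63 ± 0.28 in pretumor samples and 3.91 ± 0.11 in tumor samples (SD).

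In tumor against GCP samples Id4 fell by 1.26 on the log2 scale (SE 0.13, limma adjusted p = 0.000176), which is at least 2.23-fold lower when tumor values in the low band are counted as 16. This call held under all 24 alternatives, with adjusted p from 3.31e-05 to 0.00545. In tumor against pretumor samples Id4 fell by 0.72 (SE 0.12, adjusted p = 0.0176), at least 1.54-fold. That call ended without pretumor 1 (adjusted p = 0.051) or tumor 4 (0.0518), with a floor of 16 (0.0851) and with only these groups fitted (0.0706), in a range of 0.00431 to 0.0851. In pretumor against GCP samples Id4 fell by 0.54 (SE 0.13, adjusted p = 0.0395), or 1.45-fold. That call was fragile: it ended without any 1 of the 4 GCP arrays, pretumor 1, 3 or 5, or tumor 1 or 4 (adjusted p = 0.0531 to 0.119), without pretumor 3 and tumor 2 together (0.0829), with GCP pairs averaged (0.239), with a floor of 16 (0.0711) and with only these groups fitted (0.0936). Its direction was the same under all 24 alternatives, with adjusted p from 0.0248 to 0.239.

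Markers of astrocytes and Bergmann glia, cells that express Id4, and of several other cell types also differed between the stages. Of 13 measured glial markers, 7 were called lower and 0 higher in tumor against GCP samples. In tumor against pretumor samples 4 were lower and 0 higher: Aldoc, Gjb6, Gja1 and Hopx. Of these, Gjb6 lay in the low band on every array and Aldoc on all but 1 pretumor array. The Aldoc call in tumor against pretumor samples ended with a floor of 16. In pretumor against GCP samples 1 was lower, Fabp7, and 2 were higher, Aldoc and Gjb6, within the low band apart from 1 array. The Aldoc call in tumor against GCP samples ended without GCP 1, 2 or 4, pretumor 2 or tumor 1, 2, 4 or 5. It also ended with 16 added to each value before log2 (adjusted p = 0.364). The Gja1 call in tumor against pretumor samples ended without any 1 of 13 arrays, all but tumor 3. With GCP pairs averaged, 4 of the 7 tumor against GCP calls ended, Gdf10 (adjusted p = 0.0907), Aldoc (0.202), Gja1 (0.076) and Sparcl1 (0.0565), which left Aqp4, Fabp7 and Hopx. The Gja1 call in tumor against pretumor samples ended with GCP pairs averaged (0.0923) and without pretumor 3 and tumor 2 (0.0832). The summed intensity of the 13 markers ran from 866 to 2630 in tumor samples and from 2331 to 3748 in pretumor samples, against 11900 to 15610 in GCP samples. Fabp7 alone made up 28.9% to 58.5% of this sum in tumor and 23.8% to 46.4% in pretumor samples, against 65.1% to 75.3% in GCP samples. Without it the other 12 markers summed to 514 to 1091 in tumor and 1381 to 2657 in pretumor samples, against 3289 to 5367 in GCP samples. The median difference of the 13 markers was -1.46 in tumor against GCP, -0.50 in pretumor against GCP and -1.17 in tumor against pretumor samples. Slc1a2, the main glutamate transporter of astrocytes, and Gjb6, a gap junction protein, lay in the low band on all 14 arrays. S100b, Glul and Ndrg2 had group means above the low band and no call in any contrast. Glul was 0.48 higher in pretumor against GCP samples (limma adjusted p = 0.133). Gfap, in the low band apart from 1 tumor array, was higher in tumor samples without a call. It differed by 0.47 against GCP and 0.97 against pretumor samples (adjusted p = 0.761 and 0.422). Hopx, a homeodomain protein of Bergmann glia (96672_at), stood at 5.72, 6.06, 5.22, 5.07 and 4.83 in tumor samples, against 7.99, 7.90, 7.69 and 8.08 in GCP samples. These 2 sets of values did not overlap, and Hopx fell by 2.53 (adjusted p = 6.56e-05). Aqp4, the water channel of astrocytes (102704_at), stood at 6.56, 5.03, 2.72, 2.91 and 2.33 in tumor samples and between 8.54 and 10.20 in GCP samples. The order of stages differed among markers of other cells. Of 10 measured oligodendrocyte markers 3 were called higher and 0 lower in pretumor against GCP samples. In tumor against pretumor samples 0 were higher and 4 lower. Of 3 choroid plexus and ependyma markers 1 was higher in pretumor against GCP samples and 1 lower in tumor against pretumor samples. Of 8 meningeal markers 1 was higher and 2 lower, then 0 higher and 1 lower, in these contrasts. Gad1 and Hbb-b2 had the same order of stages as Id4. Gad1, an enzyme of inhibitory neurons (103061_at), averaged 2.10 ± 0.59 in tumor and 3.50 ± 0.81 in pretumor samples, against 6.37 ± 0.77 in GCP samples. It was called lower in both (adjusted p = 0.000281 and 0.0048), and the pretumor call ended with GCP pairs averaged (0.0514). Of 8 measured Purkinje cell and interneuron markers 2 were lower and 0 higher in each of these contrasts. Gad1 does not stand for that list: 5 of the 8 lay in the low band on all 14 arrays. The median difference of the 8 was -0.004 in tumor and 0.03 in pretumor against GCP samples. The globin Hbb-b2 (103534_at) averaged 4.97 ± 2.80 in tumor samples and 9.19 ± 0.89 in pretumor samples, against 10.69 ± 0.72 in GCP samples. It was called lower in tumor against GCP samples (adjusted p = 0.0157). Leaving out GCP 3 or GCP 4, fitting only these groups or averaging the GCP pairs (0.15) ended the Hbb-b2 call. Lyz2, a lysozyme of macrophages (100611_at), ran the other way and was 15.7-fold higher in tumor against GCP samples (adjusted p = 0.000301). Of 13 measured microglia and macrophage markers 2 were called higher and 0 lower in that contrast. The other one was Ctss (98543_at), 3.31-fold higher (limma adjusted p = 0.0386). The Ctss call held under 10 of 24 alternatives, in a range of 0.00894 to 0.147. It ended with GCP pairs averaged (0.142) and without pretumor 3 and tumor 2 together. The median difference of that list was 0.12, and 8 of its markers lay in the low band on all 14 arrays. The part of any of these cells in the Id4 difference was not tested, and in mixed cells fewer cells of a type and less RNA per cell cannot be told apart.

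**Figure D2:**
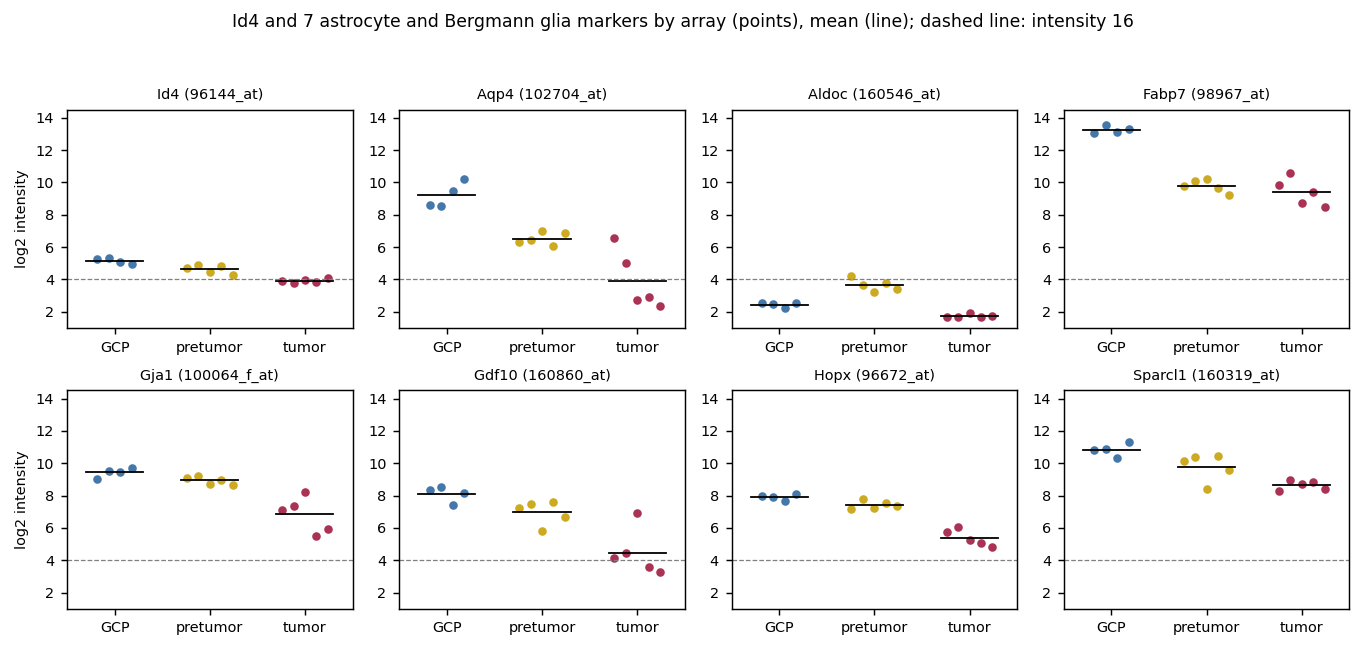
Log2 intensity of Id4 and of the 7 astrocyte and Bergmann glia markers called lower in tumor against GCP samples, on each of the 14 arrays. Points are arrays, short lines are group means and the dashed line is the intensity of 16. Tumor means lie below GCP means in the 7 marker panels by that choice, and Id4 was called lower too. Pretumor means lie between the tumor and GCP means except for Aldoc. The other measured markers of the list are not shown.

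Id2, an Id protein known from many proliferating and neuronal cells, gave strong signal on every array and no called difference. Probe set 93013_at stood at 11.12, 11.25, 11.52 and 11.62 in GCP samples, 10.62, 10.69, 11.09, 10.86 and 10.93 in pretumor samples and 11.30, 11.54, 11.68, 10.51 and 11.26 in tumor samples. The pretumor samples all lay below the GCP samples, by a narrow margin, and 1 tumor sample, tumor 4, lay below all others. GCP 3 and GCP 4 lay above GCP 1 and GCP 2, the same pairing as over all probe sets. In pretumor against GCP samples the difference was -0.54 (95% interval -0.995 to -0.09, adjusted p = 0.209). It passed the test under 1 of 24 alternatives, without tumor 4 (adjusted p = 0.0492). In tumor against GCP samples it was -0.12 (-0.58 to 0.33, adjusted p = 0.921), and in tumor against pretumor samples 0.42 (-0.01 to 0.85, adjusted p = 0.451).

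Id1 and Id3, the Id proteins best known from BMP responses and from blood vessels, stayed in the low band apart from 1 array. Id1 (100050_at) had 3.69, 3.43, 3.34 and 3.32 in GCP samples, 3.41, 2.75, 2.68, 2.76 and 2.69 in pretumor samples and 3.09, 2.66, 2.73, 3.30 and 4.68 in tumor samples. The groups overlapped, and tumor 5 was the array above the low band. Id3 (92614_at) had 3.04, 3.10, 3.17 and 2.98 in GCP samples, 2.85, 2.63, 2.56, 2.46 and 2.46 in pretumor samples and 2.58, 2.86, 3.75, 2.64 and 3.20 in tumor samples. The pretumor samples lay below the GCP samples, and tumor 3 was the highest array. No difference of either gene was called: pretumor against GCP gave -0.59 for Id1 (adjusted p = 0.49) and -0.48 for Id3 (0.256), and the other contrasts gave adjusted p from 0.433 to 0.989. Id3 passed the test in pretumor against GCP when only those groups were fitted (adjusted p = 0.0177) and without tumor 3 (0.0495), within the low band. Beside these, 13 markers of endothelium and pericytes summed to 59.45 to 89.8 in tumor samples and 88.1 to 122.9 in pretumor samples, against 138.6 to 176.6 in GCP samples. Of them 5 were called lower and 0 higher in tumor against GCP samples: Cdh5, Tie1, Kdr, Cldn5 and Tek. In pretumor against GCP samples 4 were lower, the same genes without Tek, and 1 was higher. Of the 5, only Cldn5 lay above the low band on all GCP arrays. Tie1 lay in the low band on every array but 1 GCP array, and both its calls ended with a floor of 16. Eng and Emcn lay above the low band on all GCP arrays and were not called in these contrasts. The pretumor call of Cldn5, a tight junction protein of vessels, ended without any 1 of 8 arrays, the 4 GCP arrays and pretumor 2, 3, 4 and 5. It also ended with GCP pairs averaged (0.241) and without pretumor 3 and tumor 2 (0.085), and the marker called higher, the transporter Abcb1a, lost its call with GCP pairs averaged (0.102). Cldn5 averaged 2.93 ± 0.74 in tumor and 4.39 ± 0.40 in pretumor samples, against 5.80 ± 0.27 in GCP samples. The markers Cdh5, Kdr, Flt1, Pecam1 and Tek were among 9 in the low band on every array, and the part of these cells in the Id1 and Id3 values was not tested.

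Hes1 and Hes5, the repressors switched on by Notch, gave low-band signal throughout. Hes5 161051_at had 2.37, 2.27, 2.42 and 2.56 in GCP samples, 1.90, 1.88, 2.15, 1.84 and 2.08 in pretumor samples and 2.21, 2.43, 2.04, 2.20 and 2.25 in tumor samples. All pretumor samples lay below all GCP samples, while the tumor samples overlapped both. Hes5 fell by 0.44 in pretumor against GCP samples (SE 0.09, adjusted p = 0.015), a difference within the low band, so no fold is given. The call ended without GCP 4 (adjusted p = 0.0531) and with GCP pairs averaged (0.114), in a range of 0.00656 to 0.114 over 22 alternatives. With a floor of 16 no difference was left to test. The second Hes5 probe set, 162069_at, differed by -0.07 in the same contrast (adjusted p = 0.588), so the call rests on 1 of 2 probe sets. In tumor against pretumor samples the Hes5 probe sets differed by 0.26 and 0.11 (adjusted p = 0.216 and 0.372). Hes1 (160887_at) averaged 2.26 ± 0.11 in GCP samples, 2.16 ± 0.13 in pretumor samples and 2.19 ± 0.12 in tumor samples (SD). Its groups overlapped, and the adjusted p was 0.668 or more in all 3 contrasts.

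Among the receptors, Notch2 104188_at reached the edge of the low band. It had 3.61, 3.54, 3.70 and 4.05 in GCP samples, 3.92, 3.44, 3.78, 3.56 and 3.31 in pretumor samples and 3.99, 4.92, 4.71, 4.03 and 3.09 in tumor samples. The tumor samples spread over a wider range than the other groups and included both the highest and the lowest array. The difference was 0.42 in tumor against GCP (95% interval -0.24 to 1.09, adjusted p = 0.623) and 0.55 in tumor against pretumor samples (-0.08 to 1.18, adjusted p = 0.521). Tumor 2, one of the arrays that stood apart, was the highest, and without it and pretumor 3 these differences were 0.23 and 0.40 (adjusted p = 0.811 and 0.61). The other Notch2 probe set, 101342_at, ran from 1.34 to 1.73 over all arrays. The Notch1 probe set 97497_at averaged 1.98 ± 0.08 in GCP samples, 1.60 ± 0.13 in pretumor samples and 1.67 ± 0.28 in tumor samples (SD). Its pretumor samples did not overlap the GCP samples, and the difference of -0.38 was not called (adjusted p = 0.125). It passed when those groups alone were fitted (adjusted p = 0.0231) and without tumor 2 (0.041). Notch1 162204_r_at ran from 2.06 to 3.03, with pretumor 3 and tumor 2 as its highest arrays. The ligand Dll1 ran from 1.75 to 2.25 in 92931_at, and 161634_r_at lay at or near the floor on every array. The smallest adjusted p of the 4 probe sets other than Notch1 97497_at and Notch2 104188_at was 0.487, for Dll1 92931_at in pretumor against GCP samples.

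Counted over the 13 member probe sets, limma called 0 higher and 2 lower in pretumor against GCP samples, Hes5 and Id4, where 1.67% of all probe sets were called higher and 2.69% lower. At an unadjusted p under 0.05 there were 5 of 13, against 15.4% of all probe sets. In tumor against GCP samples 0 were higher and 1, Id4, was lower, against 1.41% and 3.19% of all, with 2 of 13 at an unadjusted p under 0.05 against 15.4% of all. In tumor against pretumor samples 0 were higher and 1, Id4, was lower, against 0.209% and 0.789% of all, with 4 of 13 at an unadjusted p under 0.05 against 11.3% of all. The median difference of the members was -0.12, -0.07 and 0.11 in these 3 contrasts, where the median of all probe sets was -0.01, 0.00 and 0.01. The first 2 contrasts share the GCP samples, and the tumor and pretumor samples are each used in 2 contrasts.

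**Figure D3:**
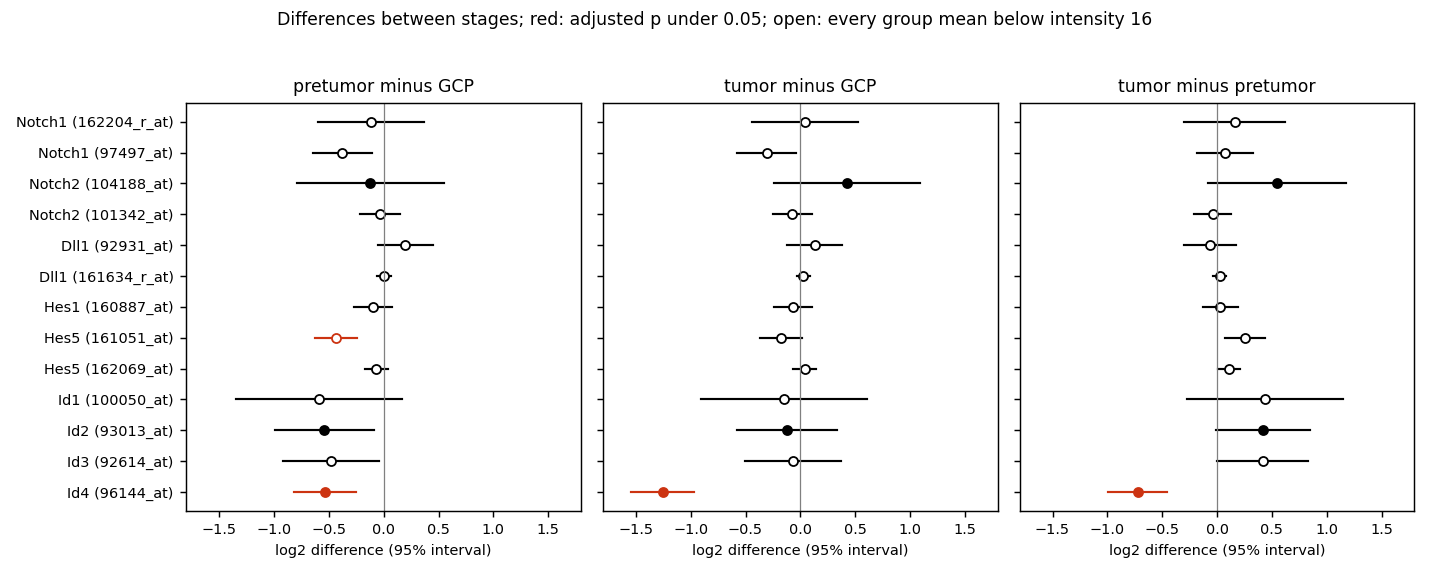
Log2 difference of each member probe set in the 3 contrasts, with its 95% interval from limma. Red marks an adjusted p under 0.05, and open circles mark probe sets whose 3 group means all lay below an intensity of 16. Id4 is red in all 3 panels, and 1 Hes5 probe set is red in pretumor minus GCP.

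The other receptors and ligands of the pathway, with 2 non-classical ligands, were lower or in the low band. Of 5 measured genes of that list 0 were called higher and 2 lower in pretumor and again in tumor samples against GCP, and none of the 5 passed in tumor against pretumor samples (0 also at an unadjusted p under 0.05, limma). Cntn1, a neuronal adhesion protein reported as a Notch ligand (92936_at), averaged 4.41 ± 0.64 in tumor and 5.13 ± 0.80 in pretumor samples, against 6.94 ± 0.55 in GCP samples. It fell 5.77-fold in tumor samples (adjusted p = 0.00628, with 1 tumor array in the low band) and 3.52-fold in pretumor samples (adjusted p = 0.0381). The pretumor call ended without any 1 of 8 arrays, GCP 2, 3 and 4, pretumor 1, 2, 4 and 5 and tumor 4, and both ended with GCP pairs averaged (adjusted p = 0.0666 in tumor and 0.234 in pretumor samples). Notch3, a receptor of vessel walls (92956_at), fell by 0.41 in tumor and by 0.43 in pretumor samples within the low band (adjusted p = 0.021 and 0.0157). Its call in tumor samples ended without GCP 1, 2 or 4 or tumor 1, and that in pretumor samples without GCP 2 or GCP 4. With GCP pairs averaged both ended (adjusted p = 0.117 in tumor and 0.0995 in pretumor samples), and the tumor call also ended with only these groups fitted. Notch4, Jag2 and Dlk1 were in the low band, with group means from 1.58 to 2.10.

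The machinery that cuts, modifies and reads the receptor held few called genes. Of 6 processing genes, Furin, the protease that matures the receptor (100515_at), was the 1 called, lower by 0.21 in pretumor against GCP samples (adjusted p = 0.0402). That call ended under 17 of 24 alternatives, among them either rescaling of the arrays, GCP pairs averaged (0.208) and pretumor 3 and tumor 2 left out (0.0748). Adam10, which makes the first activating cut (97947_at), averaged 8.15 ± 0.34 in tumor and 7.94 ± 0.46 in pretumor samples, against 8.44 ± 0.15 in GCP samples (adjusted p = 0.666 and 0.319). Of 8 modifiers 1 was called: Mfng, a Fringe glycosyltransferase (100508_at), fell by 0.58 in pretumor against GCP samples within the low band (adjusted p = 0.00297, from 0.000799 to 0.0398 over 22 alternatives). Numb, an inhibitor of Notch (99955_at), averaged 5.24 ± 0.07 in GCP samples, 5.45 ± 0.28 in pretumor samples and 5.63 ± 0.64 in tumor samples (adjusted p = 0.847 and 0.608 against GCP, SD). Of 7 nuclear partners 0 were called in any contrast, and 0 at an unadjusted p under 0.05 (limma). The one with the highest mean, the corepressor Ctbp1 (101081_at), averaged 10.15 ± 0.36, 9.93 ± 0.19 and 10.03 ± 0.23 in GCP, pretumor and tumor samples. Rbpj (101902_at) averaged 5.01 ± 0.44, 4.94 ± 0.27 and 5.12 ± 0.37 in GCP, pretumor and tumor samples (adjusted p of 0.823 or more).

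Relatives of Hes and the Tle corepressors that Hes proteins recruit held 2 called genes of 8, both in tumor against GCP samples. Hes6, a Hes relative that promotes neuron formation and counters Hes1 (97334_at), had 6.94 ± 0.34 in tumor samples against 7.74 ± 0.28 in GCP samples, a 1.74-fold fall (adjusted p = 0.0328). Tle1, a corepressor (102425_at), had 7.86 ± 0.22 in tumor samples against 7.05 ± 0.40 in GCP samples, a 1.75-fold rise (adjusted p = 0.0218). The groups did not overlap for either gene. The Hes6 call ended without GCP 1, 3 or 4 or tumor 1 or 3, and the Tle1 call without tumor 1 or without pretumor 3 and tumor 2 together (0.0515). With GCP pairs averaged both ended (adjusted p = 0.167 for Hes6 and 0.0565 for Tle1). Both also ended with a floor of 16 (0.0753 and 0.0508) and with only these groups fitted (0.101 and 0.0899). Hey1, another Notch target, was in the low band apart from 1 tumor array, at 3.12 ± 0.18, 3.11 ± 0.18 and 3.10 ± 0.68 in GCP, pretumor and tumor samples.

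E proteins, the partners that Id proteins bind, gave no call where they had signal. Tcf4 (160483_at) averaged 12.12 ± 0.15, 12.07 ± 0.19 and 12.23 ± 0.35 in GCP, pretumor and tumor samples, and Tcf12 (98981_s_at) averaged 10.24 ± 0.15, 10.05 ± 0.15 and 10.14 ± 0.35 (SD). No contrast of either was called (adjusted p of 0.687 or more). Of the 12 measured E proteins and proneural factors, 1 rose and 2 fell in pretumor samples, and 1 rose and 1 fell in tumor samples, against GCP. Neurod1, a factor of maturing granule neurons (92717_at), fell 2.37-fold in tumor and 2.59-fold in pretumor samples (adjusted p = 0.0109 and 0.00707). Neurod4, a factor of the same family (94123_at), had 5.67 ± 0.45 in tumor and 5.57 ± 0.47 in pretumor samples, against 4.32 ± 0.29 in GCP samples. It rose 2.55-fold and 2.39-fold (adjusted p = 0.0144 and 0.0221), and the pretumor call ended without GCP 1, GCP 2 or pretumor 2 and with a floor of 16. With GCP pairs averaged all 4 of these calls ended (adjusted p = 0.0886 to 0.164). Neurog2 fell by 0.17 in pretumor samples within the low band, a call that ended without any 1 of 6 arrays, the 4 GCP arrays, pretumor 2 and pretumor 5, without pretumor 3 and tumor 2 together (0.0597) and with GCP pairs averaged (0.202). Atoh1, the factor that defines granule cell precursors, stayed in the low band (1.95 ± 0.10, 1.90 ± 0.20 and 2.01 ± 0.17).

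Of 23 measured genes of the BMP pathway, which acts upstream of the Id genes, 0 rose and 1 fell in pretumor samples and 0 rose and 2 fell in tumor samples, against GCP. In tumor against pretumor samples 0 rose and 1 fell. Gdf10, a BMP-like ligand made by Bergmann glia (160860_at) that is also on the glial list, had 4.15, 4.46, 6.95, 3.56 and 3.26 in tumor samples, against 8.32, 8.53, 7.39 and 8.19 in GCP samples. It fell by 3.63 (adjusted p = 0.00808), with 2 tumor arrays in the low band, and the call ended with GCP pairs averaged (0.0907). Bmp6, a ligand, fell by 0.24 against GCP and by 0.29 against pretumor samples in tumor samples (adjusted p = 0.0287 and 0.0236). Chrd, a BMP antagonist, fell by 0.23 in pretumor against GCP samples (adjusted p = 0.0455). Bmp6 and Chrd lay in the low band, and each of these 3 calls ended without at least 4 single arrays. For Bmp6 against GCP these were GCP 2, 3 and 4 and tumor 1, 2 and 3, for Bmp6 against pretumor they were pretumor 1 and 2 and tumor 1 and 2, and for Chrd GCP 1, 2 and 3, pretumor 1, 2, 3 and 5 and tumor 1, 3, 4 and 5. With GCP pairs averaged Bmp6 against GCP (0.155) and Chrd (0.178) ended, and without pretumor 3 and tumor 2 Bmp6 against pretumor (0.0559) and Chrd (0.0803) did. The signal carriers Smad1 (102984_g_at) and Smad4 (160440_at) averaged 9.64 ± 0.35 and 8.68 ± 0.15 in tumor samples and 9.38 ± 0.17 and 8.70 ± 0.19 in GCP samples, with no call (adjusted p = 0.585 and 1).

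**Figure D4:**
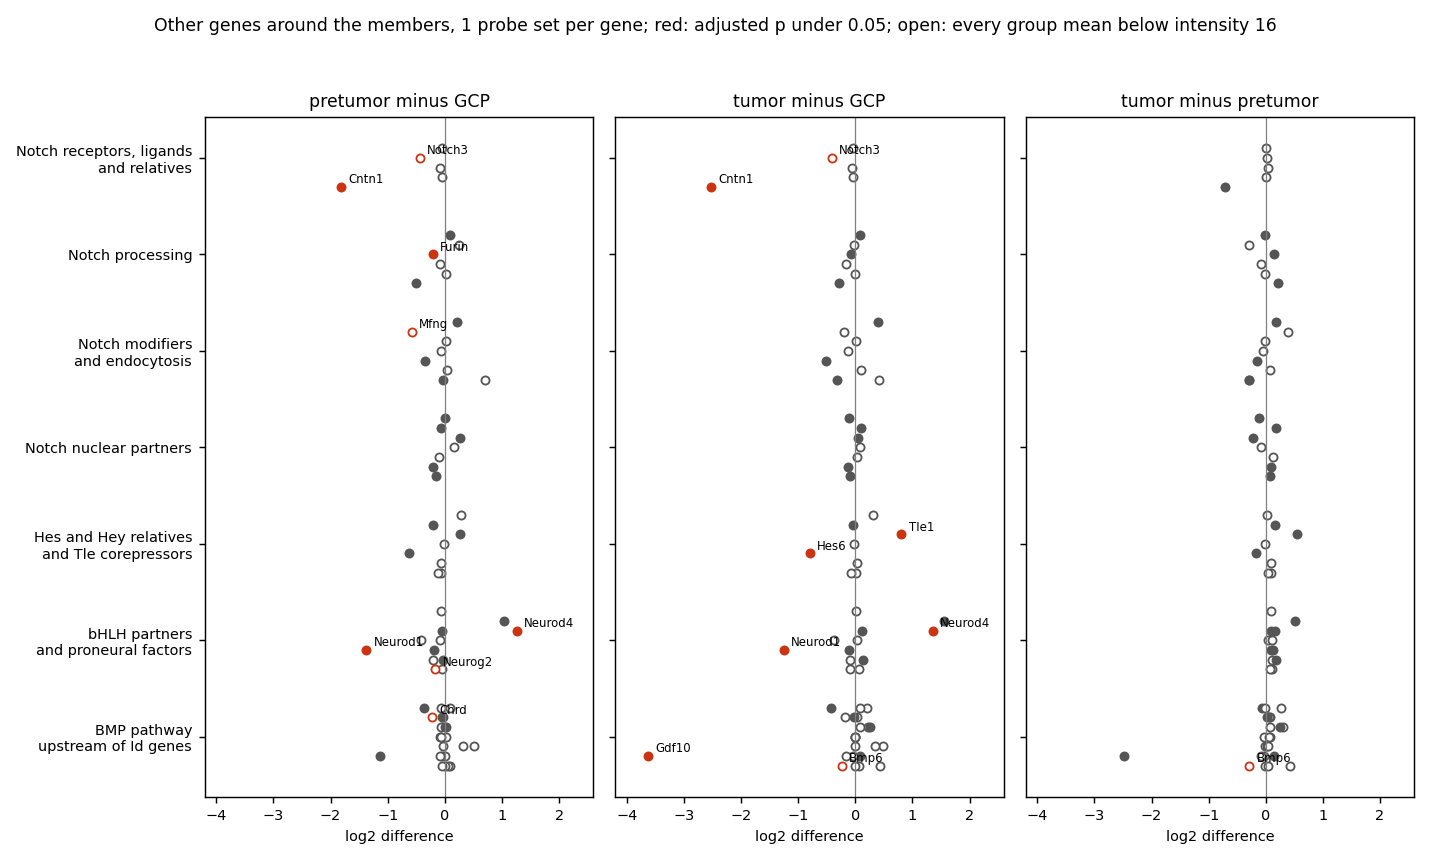
Log2 difference of each measured gene of the 7 lists around the members, in the 3 contrasts, with 1 probe set per gene. Red marks an adjusted p under 0.05 with the gene's name, and open circles mark genes whose 3 group means all lay below an intensity of 16. Most genes lie near 0, and Cntn1, Neurod1, Neurod4 and Gdf10 are the called genes with differences over 1.

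The genes most like Id2 and Id4 over the 14 arrays were sought among 3001 other genes with signal on at least 7 arrays. The 14 points share 3 groups and 1 scaling, so the correlations are descriptions. For Id2 they were Prkce, a protein kinase C (103223_at, Pearson r = 0.904, Spearman rho = 0.921), and Ak4, a mitochondrial adenylate kinase (99959_at, r = 0.854, rho = 0.798). Without the 2 arrays furthest from the Id2 median, r was 0.914 and 0.778, and for deviations from the group means it was 0.855 and 0.873. Prkce averaged 5.17 ± 0.72 in GCP samples, 2.98 ± 0.70 in pretumor samples and 4.38 ± 1.01 in tumor samples. Ak4 averaged 4.57 ± 0.17, 3.30 ± 0.49 and 3.64 ± 0.92 in these groups. Prkce lay above the low band on 4 GCP, 0 pretumor and 3 tumor arrays, and Ak4 on 4, 1 and 2. Both thus met the limit mainly through GCP samples, and their other values were not resolved from background. The Id2 deviations also correlated with the main axis of deviations over all probe sets (r = 0.65), whose part was not tested. For Id4 they were Mtarc2, a mitochondrial reductase (100633_at, r = 0.939, rho = 0.925), and Mtx2, a mitochondrial import protein (160076_at, r = 0.909, rho = 0.89). Without 2 arrays r was 0.921 and 0.886, while for deviations from the group means it was 0.462 and 0.236. Mtarc2 averaged 8.90 ± 0.12 in GCP samples, 8.51 ± 0.18 in pretumor samples and 7.72 ± 0.21 in tumor samples. It shares the order of stages of Id4, which its choice by correlation over these same arrays makes likely.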

How the data were processed

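The deposited table gives linear intensities, as the values show. How the deposited intensities were scaled by the authors was not given in the sources used here, and array medians differed by 0.0939 log2 units, so the deposited intensities were not rescaled. The 66 control probe sets were set aside. Values were floored at the 10th percentile, 2.46, and taken to log2. limma 3.58.1 in R 4.3.3 fitted 3 group means to 12422 probe sets (11 residual and 0.83 prior degrees of freedom). P-values were two-sided and Benjamini-Hochberg adjusted over all probe sets, and a call is an adjusted p under 0.05. The fit was tested on simulated data, with changes placed only in probe sets averaging well above the low band. Of the members Id2 alone lies there, so the check does not cover the others. Of the probe sets 10833 had 1 gene symbol, 396 several and 1193 none here, and 10821 of the single symbols were in the GRCm38.p6 gene table. A list gene is represented by its probe set with the highest mean.

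Members were all probe sets with a member's name. List genes were named where called, otherwise by level or role; Adam10, Numb, Rbpj, Hey1, Notch4, Jag2, Dlk1, Tcf4, Tcf12, Atoh1, Smad1 and Smad4 and the marker examples Hopx, Aqp4, Pax6, Gad1, Hbb-b2, Lyz2 and Cldn5 were chosen after their values were seen. The members, lists and the limit of 16 were chosen with earlier results of these data known. Folds against a group in the low band count its values below 16 as 16. Alternatives changed the scaling, floor, filter, fit or arrays. The number of arrays limits the precision.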

Additional observations from a re-analysis of the deposited data

Results flagged for a closer look

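Within the groups, 4 of 39 sets of values held an array further from the rest than Dixon's critical value allows. Chance would give about 1.95 of 39, but the count cannot be set against that number, because 3 of the 4 were fixed by the floor. For Id1 in pretumor samples, pretumor 1 stood at 3.41 and the others between 2.68 and 2.76, all in the low band. The remaining 3 concern Dll1 161634_r_at, where 1 array per group exceeded the floor and the others were set to it. These arrays were GCP 1 at 1.31, pretumor 3 at 1.32 and tumor 1 at 1.44.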

How the results depend on the processing

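For the member probe sets, 844 values under the alternatives kept their side of the threshold. Another 6, without a call, also kept it but moved by 1 SD or more. Of the rest, 22 lost a call, 6 gained one and 0 reversed a call. Of 784 values of results without a call, 24 had the opposite sign. In pretumor against GCP the 2 member calls became 0 with a floor of 16, with the replicate block and with GCP pairs averaged, 1 with the filter of 16 on at least 4 arrays (3816 probe sets) and 1 without pretumor 3 and tumor 2 together, an alternative chosen after seeing the data. Without 1 array they ran from 0 to 3. With those groups fitted alone Id4 lost its call (adjusted p = 0.0936) while Id3 and Notch1 gained one, and with the replicate block Id4 had an adjusted p of 0.14. In tumor against GCP the 1 call ran from 1 to 2 without 1 array. In tumor against pretumor the 1 call became 0 with a floor of 16, with the compared groups fitted alone and with the replicate block, and ran from 0 to 1 without 1 array. Over all probe sets, the 541 called in pretumor against GCP became 194 with a floor of 16 and 168 with GCP pairs averaged, and ran from 331 (without GCP 4) to 624 without 1 array. The 571 in tumor against GCP became 232 with a floor of 16, 335 with the compared groups fitted alone and 198 with GCP pairs averaged, and ran from 338 (without GCP 4) to 712. The 124 in tumor against pretumor became 32, 50, 76 and 69 with a floor of 16, the compared groups alone, the replicate block and GCP pairs averaged, and ran from 70 to 148. Fewer samples or fewer resolved values are part of how these alternatives are built; beyond that the cause was not tested. Of 41 called results of list genes, to which the alternatives were applied after seeing the data, 21 ended with GCP pairs averaged and 11 with the block. Same-numbered samples share only a number: their deviations correlated from -0.323 to 0.51. Signal near background limits the members other than Id2 and Id4.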
